A study of Mus musculus with 6 samples.

Results

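The genes described here are the secreted proteins Fstl1 and Ndnf and 8 genes of the follistatin and activin system, namely the inhibitors Fst and Fstl3, the ligand subunits Inhba and Inhbb, and the receptors Acvr1, Acvr1b, Acvr2a and Acvr2b. These are 10 of 18193 genes measured. They were read through the probe sets whose platform annotation names 1 of the 10 symbols alone, which are 21 of the 45101 on the array. Fstl1 and Ndnf were selected on their measured rise over the parent line, so their differences between the lines are given as a description, with no test. This holds for I1 against M1 as well, since the selection used the arrays of both. The other 8 were added as their relatives, with results of these data known.

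The samples were 6 Affymetrix mouse arrays of 3 hepatocellular carcinoma lines, 2 arrays each. I1 and M1 are migratory subpopulations of a parent line and are titled subclone lines. BL185 is that parent, and all 3 were kept in DMEM with fetal bovine serum. No agent or engineered allele is named for any line, and each of I1 and M1 is 1 derived line. A subclone derived without selection is not among the samples, so selection and subcloning cannot be told apart. Whether the paired arrays of a line stand for separate cultures is not stated, so p-values measure only the spread between arrays, which may be technical.

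Activins are dimers of inhibin beta subunits, encoded among others by Inhba and Inhbb. They bind a type II receptor, Acvr2a or Acvr2b, which recruits a type I receptor, classically Acvr1b, and this phosphorylates the transcription factors SMAD2 and SMAD3. Follistatin (Fst) and Fstl3 bind activins outside the cell and keep them from their receptors, and in liver activin A is known to restrain hepatocyte growth. Fstl1 carries a follistatin-like domain but is better known for binding bone morphogenetic proteins (BMPs), among them BMP4. Ndnf is a secreted glycoprotein with fibronectin type III domains, first described as a neurotrophic factor, and is not a follistatin relative.

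The arrays were uneven, which bears on every value. The 2 arrays of a line correlated over probe sets at r = 0.994 in I1, 0.911 in M1 and 0.997 in BL185, and the pooled replicate SD over 18193 genes was 0.16 log2 units in I1, 0.65 in M1 and 0.10 in BL185. Signals on M1 replicate 1 were compressed (SD 1.62 over all probe sets, against 1.83 to 1.97 on the other 5 arrays). For 18S ribosomal RNA the 3′ control read 11.27 and 11.51 in I1, 12.50 and 10.69 in M1, and 10.11 and 10.14 in BL185. The 3′ minus 5′ signal of Actb was 1.47 and 1.43 in I1, 1.44 and 1.24 in M1, and 1.08 and 0.88 in BL185. Both measures were higher in the subclone lines than in BL185, and their part in the differences below was not tested. Array medians ran from 7.87 to 8.11 on the log2 scale. With no detection calls used here, a signal near or below them may be background, and the size of a change against it is not exact. The lines carried the epithelial keratins Krt8 and Krt18 at 14.78 to 15.23 and the hepatocyte transcription factor Hnf4a at 11.94 to 13.34. Albumin (Alb, 7.53 to 8.43) stayed near the medians in all 3. These belong to 11 measured hepatocyte and liver carcinoma markers, of which 6 in I1, 6 in M1 and 5 in BL185 averaged above 9. Afp, Apoa1, Apoa2 and Gpc3, like Alb, averaged below 9 in every line.

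Fstl1 was the gene with the largest rise of all 18193 in I1 over BL185, and ranked 3 in M1. Its log2 signal was 12.47 and 12.76 in I1, 11.39 and 12.49 in M1, and 8.05 and 7.81 in BL185. All 4 subclone arrays lay at least 3.33 log2 units above both BL185 arrays, while the I1 and M1 arrays overlapped with each other. The mean was 12.62 ± 0.20 in I1, 11.94 ± 0.78 in M1 and 7.93 ± 0.17 in BL185 (SD, n = 2 each). This is a difference of 4.68 ± 0.39 in I1 and 4.004 ± 0.39 in M1 (SE of the fit), or 25.7-fold and 16.04-fold on the linear scale. Because the BL185 mean was at the array medians, these folds are not exact. The second probe set for Fstl1, 1448259_at, read 11.68 and 11.77 in I1, 10.72 and 11.77 in M1, and 7.69 and 7.54 in BL185. Its differences were 4.11 in I1 and 3.63 in M1, so both Fstl1 probe sets showed the same order of lines. Fewer cells with the transcript and less transcript in each cell cannot be told apart in RNA from whole cultures.

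The 250 bases before the RefSeq start of Fstl1 (GRCm38.p6, chr16:37776805-37777054, plus strand) are printed because this gene had the largest change of the set in I1 and the next largest, after Ndnf, in M1. In this and the later windows capitals mark matches, on either strand, to 4 short motifs. They were the SMAD-binding CAGAC, the E-box CACGTG, the AP-1-like TGANTCA and the core TATAAA of the TATA box. No match overlaps another in the windows shown here.
Fstl1: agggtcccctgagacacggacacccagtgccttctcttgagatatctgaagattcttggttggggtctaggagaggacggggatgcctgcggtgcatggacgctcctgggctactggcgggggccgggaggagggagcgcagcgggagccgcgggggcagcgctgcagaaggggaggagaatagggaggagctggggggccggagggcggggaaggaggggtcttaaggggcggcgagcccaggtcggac
The window held 68.0% G and C and 16 CpG dinucleotides, against medians of 52.4% and 6.0 over the 32851 RefSeq windows of the same length. It held none of the 4 motifs, which occur in 42.2% (CAGAC), 6.0% (CACGTG), 6.7% (TGANTCA) and 12.4% (TATAAA) of all windows. RefSeq windows were matched for 8 of the 10 genes.

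Ndnf had the largest rise of all genes in M1 over BL185. It read 9.69 and 10.44 in I1, 11.41 and 12.78 in M1, and 7.64 and 7.63 in BL185. The lines did not overlap, and the order was M1, then I1, then BL185. Means were 10.07 ± 0.53 in I1, 12.09 ± 0.97 in M1 and 7.63 ± 0.01 in BL185 (SD, n = 2 each). The difference from BL185 was 2.43 ± 0.51 in I1, where Ndnf ranked 32, and 4.46 ± 0.51 in M1 (SE). On the linear scale these are 5.40-fold and 22.0-fold, again not exact because the BL185 signal lay below the array medians. The other Ndnf probe set, 1453225_at, stayed between 6.15 and 6.25 on all 6 arrays, below every array median, and showed no such rise. The Ndnf values therefore rest on 1 probe set, 1460465_at.

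**Figure D1:**
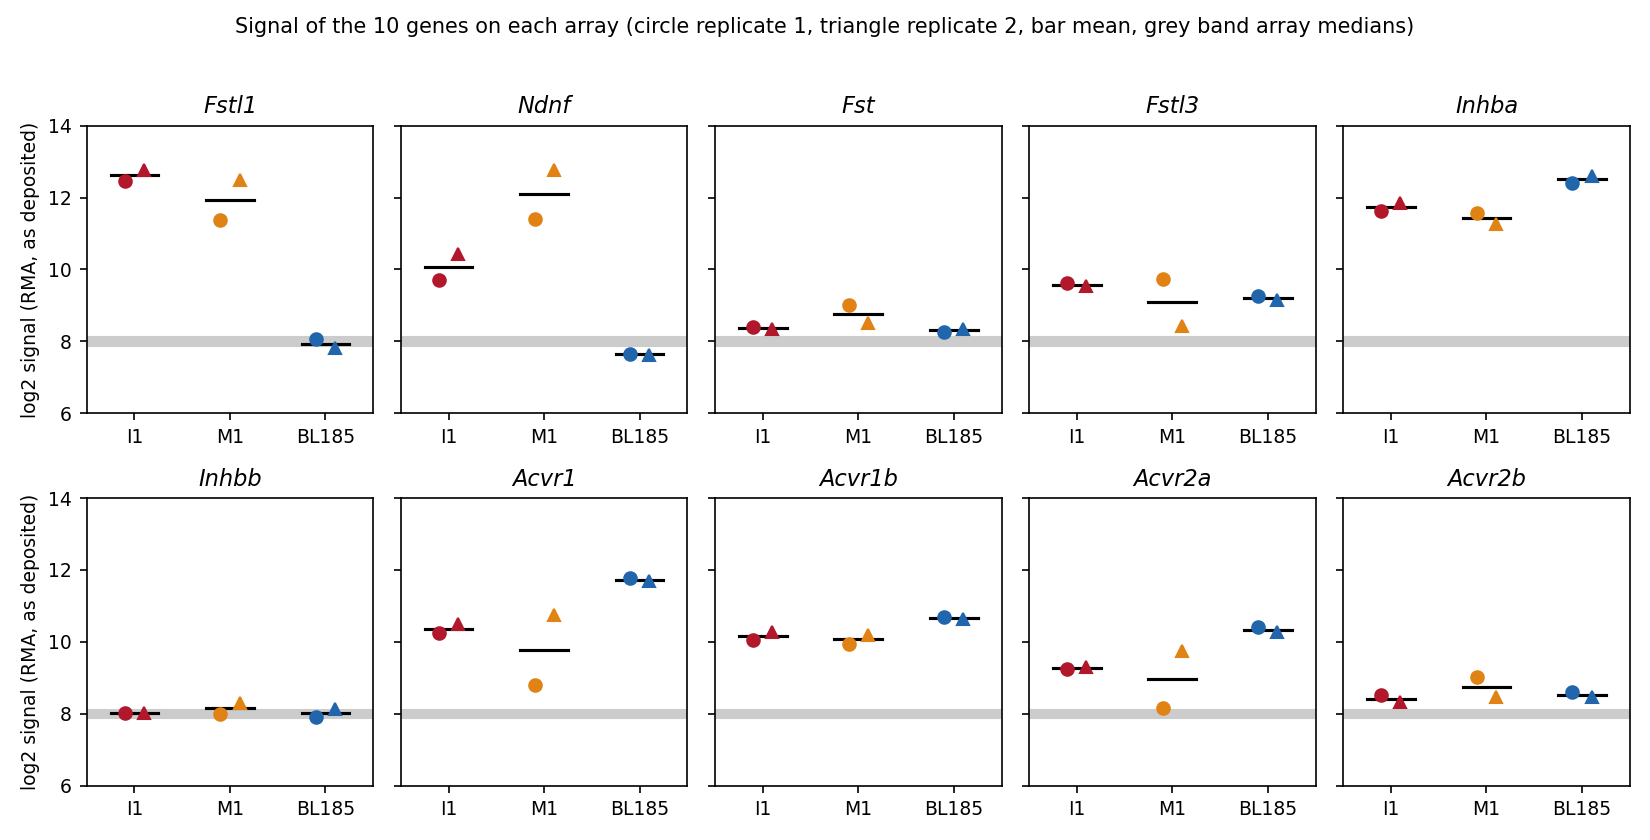
Log2 signal (y axis) of the probe set that stands for each of the 10 genes on the 2 arrays of I1, M1 and BL185 (x axis), with the mean as a bar and the range of array medians in grey. Fstl1 and Ndnf sit near the medians in BL185 and at 9.69 or above in both subclone lines, while Inhba, Acvr1, Acvr1b and Acvr2a sit highest in BL185.

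By limma with Benjamini-Hochberg adjustment over all 18193 genes, the threshold of an adjusted p under 0.05 was met against BL185 by 93 genes in I1 (0.511%, with 0.192% higher and 0.319% lower) and by 160 in M1 (0.879%, with 0.275% higher and 0.605% lower). Fstl1 was among them in both lines and Ndnf in M1, which follows from how they were chosen and was not read as a result. Of the other 8 genes, 0 passed in I1 and 0 in M1. At an unadjusted p under 0.05 there were 2 of 8 in I1, where 11.6% of all genes were that low, and 4 of 8 in M1, where 15.4% were. The median change of the 8 was −0.30 in I1 and −0.35 in M1, against 0.06 and 0.07 over all genes. Over the 12029 genes with a mean log2 of at least 8, as all 8 had, it was −0.04 in I1 and −0.18 in M1. In I1 both arrays lay above both BL185 arrays for 1 of the 8 (42.6% of all genes) and below them for 4 (33.5%). In M1 they lay above for 1 of the 8 (26.2%) and below for 4 (25.7%).

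The number of calls depended on which arrays were used. With M1 replicate 1 left out, the fit called 8481 genes in I1, 24.1% of all genes lower and 22.5% higher, and 4369 in M1, 12.3% lower and 11.7% higher. Among the 8 relatives 4 were then lower and 1 higher in I1, and 5 were lower and 0 higher in M1. M1 rests on its remaining array in that fit, taken to vary as the other lines do. I1 and BL185 values do not depend on that array, and only the estimate of spread changed. With M1 replicate 2 left out instead, 38.4% of all genes were lower and 32.4% higher in M1, and 4 of the 8 were lower and 3 higher. Leaving out any I1 or BL185 array left 0 of all genes called against BL185, Fstl1 and Ndnf included.

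Neither inhibitor passed the test in either line. Fst, which codes for follistatin, read 8.41 and 8.33 in I1, 9.0 and 8.52 in M1, and 8.26 and 8.35 in BL185. The I1 and BL185 arrays overlapped, and both M1 arrays lay above BL185. Its change was 0.06 ± 0.22 in I1 (95% interval −0.49 to 0.62; limma, adjusted p = 0.915) and 0.45 ± 0.22 in M1 (−0.10 to 1.01, adjusted p = 0.395). The M1 value was 0.21 (adjusted p = 0.344) without M1 replicate 1 and 0.69 (adjusted p = 0.000462) without M1 replicate 2. A second, dimmer Fst probe set, 1434458_at, read 6.93 and 6.98 in I1, below both BL185 arrays at 7.70 and 7.47, and 7.12 and 7.94 in M1, on either side of them.

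Fstl3, the other activin-binding inhibitor, read 9.62 and 9.54 in I1, 9.73 and 8.44 in M1, and 9.26 and 9.15 in BL185. The 2 M1 arrays fell on opposite sides of BL185. The change was 0.38 ± 0.43 in I1 (limma, adjusted p = 0.757) and −0.12 ± 0.43 in M1 (adjusted p = 0.869). Without M1 replicate 1 it was −0.77 in M1 (adjusted p = 0.000857), and without M1 replicate 2 it was 0.53 (adjusted p = 0.00364), so the direction in M1 depends on which array is used. In I1 the value of 0.38 passed once either M1 array was left out (adjusted p = 0.0152).

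Among the ligand subunits, Inhba, which forms activin A, was lowest in M1 and highest in BL185. It read 11.61 and 11.86 in I1, 11.57 and 11.28 in M1, and 12.41 and 12.60 in BL185. All 4 subclone arrays lay below both BL185 arrays, by at least 0.55 in I1 and 0.84 in M1. The change was −0.77 ± 0.21 in I1 (limma, adjusted p = 0.235) and −1.08 ± 0.21 in M1 (adjusted p = 0.102), which did not pass. Leaving out M1 replicate 1 gave −0.77 (adjusted p = 0.00021) and −1.23 (adjusted p = 3.44e-05). After cyclic loess normalization, which removes level-dependent shifts between arrays, it was −0.58 (adjusted p = 0.491) and −0.65 (adjusted p = 0.381), and after quantile normalization −0.59 (adjusted p = 0.533) and −0.70 (adjusted p = 0.368). The second Inhba probe set, 1458291_at, lay at 7.58 to 8.90, near the medians, and its mean differences were positive, 0.32 in I1 and 0.63 in M1 (limma over all 45037 probe sets, of which 0.451% were called in I1 and 0.588% in M1, adjusted p = 0.775 and 0.472). The 250 bases before the RefSeq start of Inhba (GRCm38.p6, chr13:16011601-16011850, plus strand) are shown for contrast with the other windows, with the TATAAA match in capitals. This window precedes the start of 1 transcript and lies inside the annotated span of the gene (chr13:16004256-16031609), whereas the other windows printed here end at the edge of theirs.
Inhba: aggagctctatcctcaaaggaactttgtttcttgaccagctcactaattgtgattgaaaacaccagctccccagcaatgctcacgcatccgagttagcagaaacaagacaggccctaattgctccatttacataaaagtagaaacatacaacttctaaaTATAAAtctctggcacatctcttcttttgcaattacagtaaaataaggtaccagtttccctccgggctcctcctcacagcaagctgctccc
It held 43.2% G and C and 3 CpG dinucleotides, below the medians of all windows, and its TATAAA match spans bases 91 to 86 before the start.

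Inhbb, which forms activin B, read 8.02 and 8.01 in I1, 8.004 and 8.30 in M1, and 7.90 and 8.12 in BL185 on its brighter probe set. These values all lay close to the array medians and the lines overlapped (change 0.00 ± 0.20 in I1 and 0.14 ± 0.20 in M1; limma, adjusted p = 0.998 and 0.666). The dimmer Inhbb probe set, 1426858_at, read 7.09 and 7.26 in I1, 7.43 and 8.73 in M1, and 6.50 and 6.67 in BL185. On it all 4 subclone arrays lay above BL185, by a mean of 0.59 in I1 and 1.49 in M1 (limma over all probe sets, adjusted p = 0.67 and 0.241). Only M1 replicate 2 exceeded its array median on that probe set.

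The receptors Acvr1, Acvr1b and Acvr2a read lower in both subclone lines, and Acvr2b did not. Acvr1, a type I receptor that signals mainly for BMPs, read 10.24 and 10.49 in I1, 8.80 and 10.74 in M1, and 11.77 and 11.69 in BL185. Every subclone array was below both BL185 arrays, and M1 replicate 1 was the lowest. The change was −1.37 ± 0.62 in I1 (2.59-fold lower; limma, adjusted p = 0.502) and −1.96 ± 0.62 in M1 (3.90-fold lower, adjusted p = 0.253). The values without M1 replicate 1 were −1.37 (adjusted p = 7.8e-07) and −0.998 (adjusted p = 0.000163), and the M1 value without M1 replicate 2 was −2.93 (adjusted p = 2.61e-09). Of its other probe sets, 1416786_at was also lower, by a mean of −1.16 in I1 and −0.68 in M1, and 1416787_at was not (−0.04 and 0.05; limma over all probe sets, adjusted p = 0.919 and 0.86).

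Acvr1b, the classical type I activin receptor, read 10.06 and 10.26 in I1, 9.94 and 10.20 in M1, and 10.69 and 10.63 in BL185. Again all 4 subclone arrays were below BL185, by small margins. The change was −0.50 ± 0.19 in I1 (limma, adjusted p = 0.413) and −0.59 ± 0.19 in M1 (adjusted p = 0.258). With M1 replicate 1 left out it was −0.50 (adjusted p = 0.00343) and −0.46 (adjusted p = 0.0321), but after cyclic loess normalization it was −0.28 (adjusted p = 0.577) and −0.13 (adjusted p = 0.731). The dimmer probe set 1422098_at did not read lower (0.11 in I1 and 0.39 in M1).

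Acvr2a, a type II activin receptor, read 9.24 and 9.29 in I1, 8.17 and 9.75 in M1, and 10.42 and 10.27 in BL185. The lines did not overlap with BL185, and the 2 M1 arrays straddled I1. The change was −1.07 ± 0.52 in I1 (2.11-fold lower; limma, adjusted p = 0.533) and −1.38 ± 0.52 in M1 (2.61-fold lower, adjusted p = 0.309). The fit without M1 replicate 1 gave −1.07 (adjusted p = 4.55e-06) and −0.59 (adjusted p = 0.00597), and that without M1 replicate 2 gave −2.17 in M1 (adjusted p = 1.51e-08). The other probe set, 1451004_at, showed no such difference (−0.16 in I1 and 0.24 in M1; limma over all probe sets, adjusted p = 0.82 and 0.608), so the 2 probe sets of Acvr2a disagreed. With the probe sets of a gene averaged, the changes in I1 and M1 were −0.22 and −0.22 for Inhba, −0.86 and −0.86 for Acvr1, −0.19 and −0.10 for Acvr1b, and −0.61 and −0.57 for Acvr2a (limma, adjusted p from 0.222 to 0.716).

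Acvr2b, the other type II receptor, read 8.52 and 8.32 in I1, 9.03 and 8.46 in M1, and 8.60 and 8.46 in BL185. The lines overlapped on this probe set (−0.11 ± 0.25 in I1 and 0.21 ± 0.25 in M1; limma, adjusted p = 0.862 and 0.607). The M1 value was −0.07 (adjusted p = 0.832) without M1 replicate 1 and 0.49 (adjusted p = 0.00785) without M1 replicate 2. Its other probe sets, 1439856_at and 1440525_at, had means of −0.02 and 0.22 in I1 and 0.17 and 0.56 in M1, with M1 replicate 1 the highest array on both.

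The windows of the receptors that read lower are printed to compare their composition (GRCm38.p6). Acvr1 is at chr2:58566829-58567078 on the minus strand, Acvr1b at chr15:101173822-101174071 and Acvr2a at chr2:48813859-48814108, both on the plus strand, with motif matches in capitals.
Acvr1: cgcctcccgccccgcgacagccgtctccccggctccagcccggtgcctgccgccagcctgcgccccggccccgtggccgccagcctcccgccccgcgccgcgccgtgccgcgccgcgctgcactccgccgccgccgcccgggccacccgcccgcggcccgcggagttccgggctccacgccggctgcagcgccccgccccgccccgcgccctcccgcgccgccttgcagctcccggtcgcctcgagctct
Acvr1b: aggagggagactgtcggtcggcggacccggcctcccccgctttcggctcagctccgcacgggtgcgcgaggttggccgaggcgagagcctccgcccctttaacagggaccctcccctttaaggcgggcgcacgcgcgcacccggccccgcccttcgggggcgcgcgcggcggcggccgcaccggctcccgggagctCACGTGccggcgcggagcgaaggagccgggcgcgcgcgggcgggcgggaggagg
Acvr2a: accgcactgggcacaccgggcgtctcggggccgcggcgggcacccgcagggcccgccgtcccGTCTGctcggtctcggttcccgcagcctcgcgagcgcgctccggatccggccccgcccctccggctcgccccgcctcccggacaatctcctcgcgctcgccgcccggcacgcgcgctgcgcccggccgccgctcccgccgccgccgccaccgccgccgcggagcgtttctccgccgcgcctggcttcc
All 3 were rich in G and C, at 85.6% for Acvr1, 78.8% for Acvr1b and 82.0% for Acvr2a, and held 46, 42 and 49 CpG dinucleotides, unlike the Inhba window. Acvr1b held 1 CACGTG and Acvr2a 1 match to CAGAC, read as its reverse complement, and Acvr1 held none of the 4 motifs. The windows of the members that read lower thus shared no motif among the 4 searched.

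**Figure D2:**
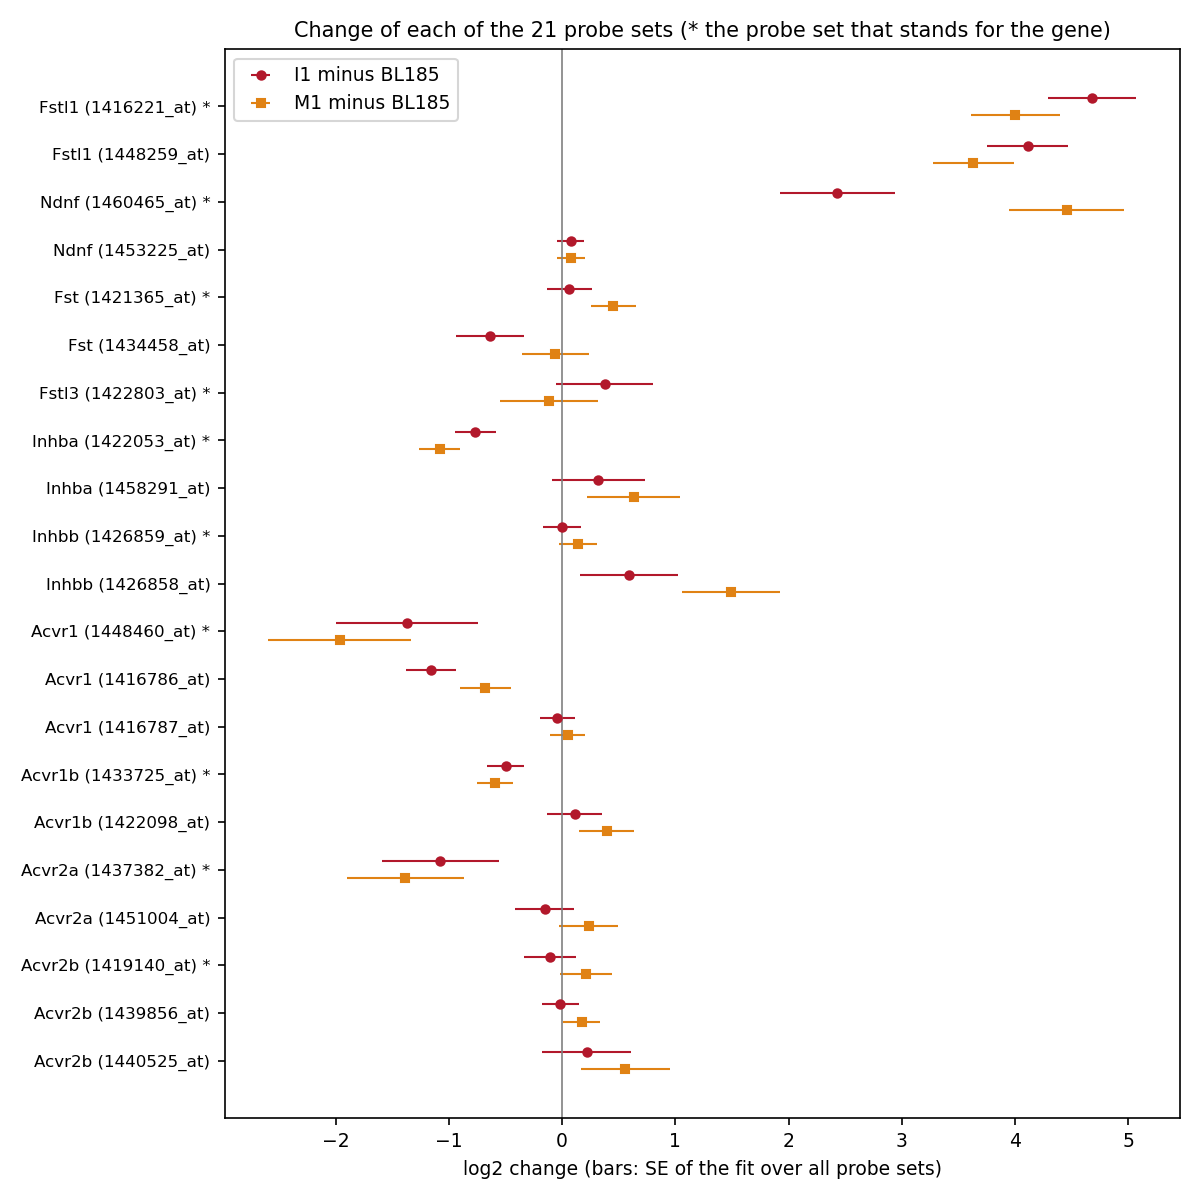
Log2 change over BL185 (x axis, bars are SE of the fit over all probe sets) of each of the 21 probe sets (y axis) for I1 and M1, with an asterisk on the probe set that stands for the gene. Both Fstl1 probe sets lie at 3.63 or above, whereas those of Ndnf, Fst, Inhba, Inhbb, Acvr1, Acvr1b, Acvr2a and Acvr2b differ in sign or size.

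**Figure D3:**
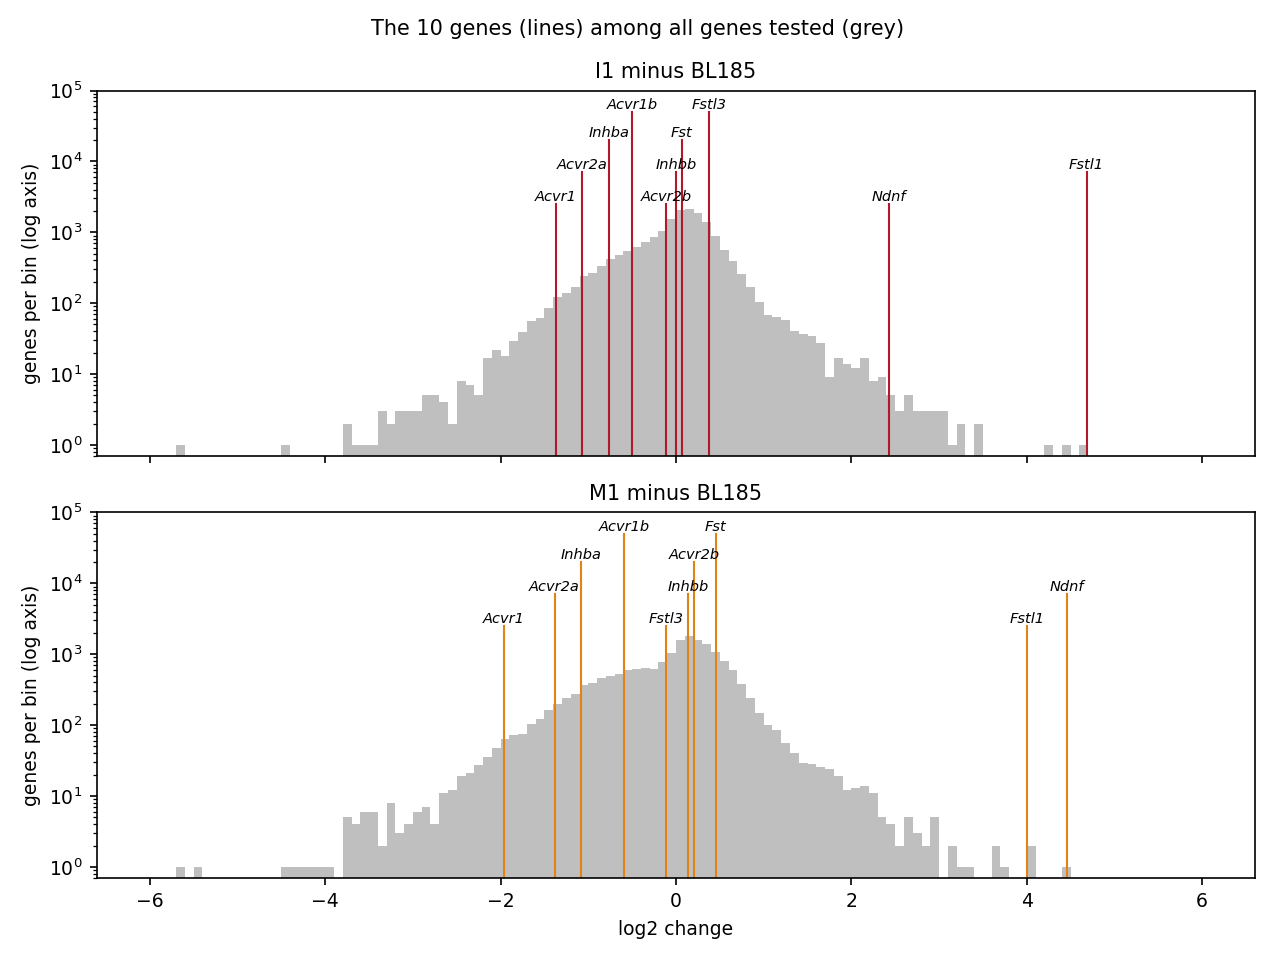
Histogram of the log2 change over BL185 (x axis) of all 18193 genes (y axis, genes per bin on a log scale) in I1 and in M1, with lines at the 10 genes. Fstl1 and Ndnf lie in the sparse upper tail and the other 8 between −1.96 and 0.45.

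I1 and M1 were also compared with each other, By limma 0 of all genes (0%) met the adjusted threshold for I1 minus M1, and 0 of the 10 did. At an unadjusted p under 0.05 there were 0 of the 8 relatives, where 2.25% of all genes were that low. Ndnf, selected on a rise that was larger in M1, differed by −2.03 ± 0.51 (SE) in I1 relative to M1, with both I1 arrays at least 0.97 below both M1 arrays. The difference was −2.71 without M1 replicate 1, −1.34 without M1 replicate 2 and −2.22 after cyclic loess.

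Fstl1 differed by 0.68 ± 0.39 in I1 relative to M1, and by 0.13 without M1 replicate 1 and 1.23 without M1 replicate 2, so the M1 arrays decide its size. The other 8 depended on the M1 arrays too, and the fits without M1 replicate 1 and without M1 replicate 2 called 7.2% and 36.1% of all genes higher and 13.4% and 20.9% lower. Fstl3 was 0.49 ± 0.43 higher in I1 (95% interval −0.60 to 1.59; limma, adjusted p = 1), and 1.14 (adjusted p = 0.000138) without M1 replicate 1, but −0.16 (adjusted p = 0.372) without M1 replicate 2. Acvr1 and Acvr2a were 0.59 and 0.31 higher in I1 with all arrays (adjusted p = 1 each), but −0.37 (adjusted p = 0.0911) and −0.48 (adjusted p = 0.028) without M1 replicate 1, and 1.56 (adjusted p = 2.43e-06) and 1.10 (adjusted p = 2.21e-05) without M1 replicate 2. Fst and Acvr2b were −0.39 and −0.32 with all arrays (adjusted p = 1 each), −0.15 (adjusted p = 0.476) and −0.04 (adjusted p = 0.896) without M1 replicate 1, and −0.63 (adjusted p = 0.00153) and −0.60 (adjusted p = 0.00301) without M1 replicate 2. Inhba was 0.31 ± 0.21 higher in I1, with both I1 arrays above both M1 arrays by 0.04 (adjusted p = 1). It was 0.46 (adjusted p = 0.0497) without M1 replicate 1 and 0.17 (adjusted p = 0.38) without M1 replicate 2. With all arrays, both I1 arrays lay above both M1 arrays for 1 of the 8, Inhba, where 8.13% of all genes did, and below for 1, Fst, where 7.96% did.

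**Figure D4:**
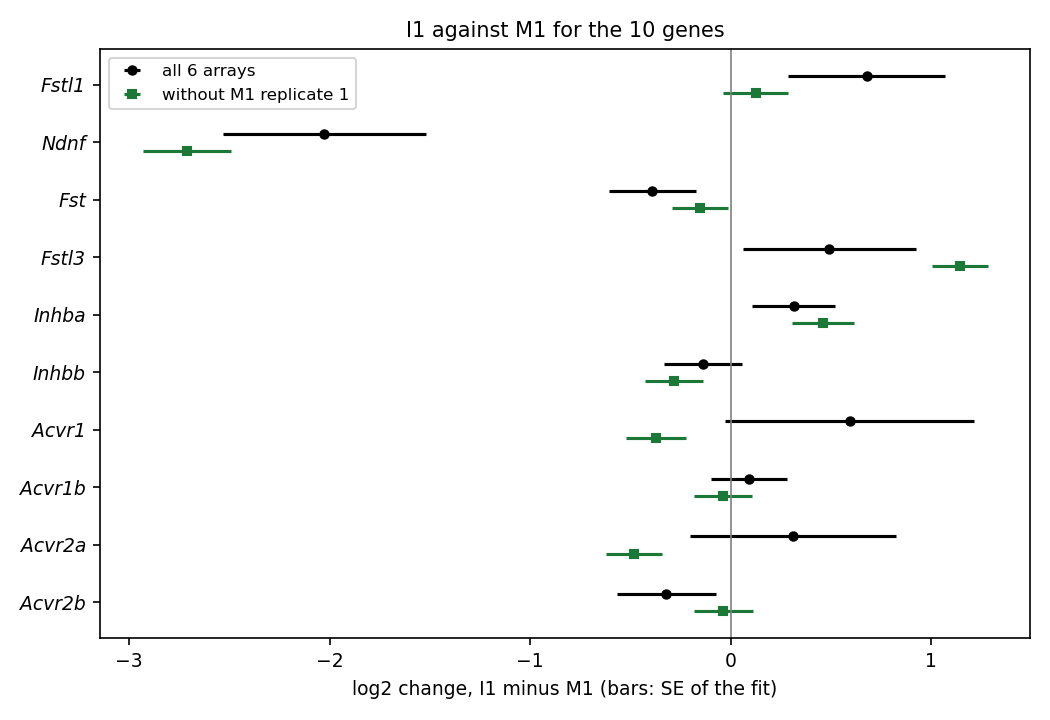
Log2 change of I1 over M1 (x axis, bars are SE of the fit) for the 10 genes (y axis), with all 6 arrays and without M1 replicate 1. Ndnf lies at −2.03 and −2.71, while Acvr1 and Acvr2a change side when that array is left out.

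The genes nearest to Fstl1 and Ndnf were found by the root mean square difference between profiles over the 6 arrays, each centred on its own mean. Nearest to Fstl1 was Cxcl5, a neutrophil-attracting chemokine, at 0.28 log2 units. It read 10.79 and 11.25 in I1, 9.33 and 11.25 in M1, and 6.62 and 6.59 in BL185. Gxylt2, a xylosyltransferase of Notch repeats (0.55), the cell cycle gene Cdca3 (0.60), Shcbp1 (0.66) and the collagen VI chain Col6a2 (0.66) followed. Nearest to Ndnf was the monocyte-attracting chemokine Ccl2 at 0.38, with 10.54 and 10.82 in I1, 11.55 and 12.35 in M1, and 7.98 and 7.73 in BL185. Wnt10a, which codes for a Wnt ligand (0.48), Mki67, a marker of dividing cells (0.67), Elmod1 (0.69) and Vat1l (0.70) followed. By their means all 5 share the order of Ndnf, M1 then I1 then BL185, with I1 minus M1 differences of −1.27 for Ccl2, −2.21 for Wnt10a, −0.48 for Mki67, −0.51 for Elmod1 and −0.87 for Vat1l. These 5 were picked for likeness to Ndnf on the same arrays, so the shared order was not read as a result. Both I1 arrays lay below both M1 arrays for Ccl2, Wnt10a and Vat1l, as for 7.96% of all genes. The I1 and M1 arrays of Mki67 and Elmod1 overlapped. Fstl1 and Ndnf themselves differed by 1.19, and Ndnf was number 67 in likeness to Fstl1.

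**Figure D5:**
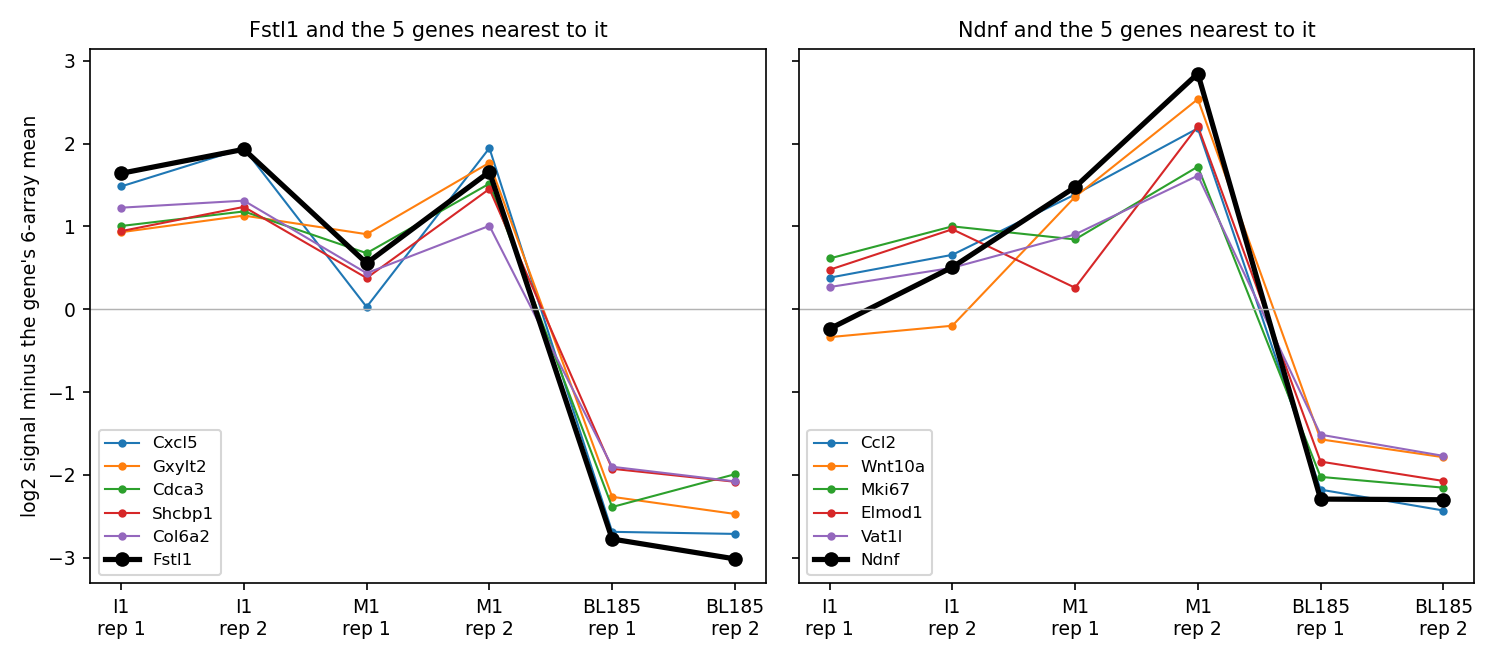
Log2 signal minus the gene's own mean over the 6 arrays (y axis) on each array (x axis) for Fstl1 and Ndnf, in black, and for the 5 genes nearest to each. By their means, I1 minus M1 runs from −0.31 (Gxylt2) to 0.73 (Cxcl5) in the Fstl1 set. Ndnf and its 5 nearest genes average highest in M1.

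Around these genes, 77 pathway genes in 5 lists were measured. Of all genes 0.192% were called higher and 0.319% lower in I1, and 0.275% and 0.605% in M1. Over all 77, 1 rose and 0 fell in I1 and 1 rose and 0 fell in M1, with medians of 0.18 and 0.20 against 0.06 and 0.07 over all genes. In both lines that gene was Sparc, a matrix protein that carries a follistatin-like domain as Fstl1 does. It read 13.52 and 13.55 in I1, 13.31 and 13.81 in M1, and 11.32 and 11.44 in BL185. Its rise was 2.16 ± 0.22 in I1 (limma, adjusted p = 0.0388) and 2.18 ± 0.22 in M1 (adjusted p = 0.0292). Both arrays of each line lay above both BL185 arrays, as for 42.6% of all genes in I1 and 26.2% in M1. Sparc was among 14 measured genes with follistatin domains, of which 1 rose and 0 fell in each line (medians 0.31 in I1 and 0.34 in M1). Leaving out any I1 or BL185 array ended the Sparc call in both lines, and fitting only the lines compared ended it in M1.

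None of the other lists had a called gene by limma. Of 15 activin, nodal and GDF ligand and coreceptor genes 0 were called and 0 had an unadjusted p under 0.05 in either line. The smallest p in I1 was that of Acvr1c, a further type I receptor (0.25 ± 0.17, adjusted p = 0.664), and in M1 that of the nodal and BMP antagonist Cer1 (0.49 ± 0.29, adjusted p = 0.437, and 0.11 with adjusted p = 0.717 without M1 replicate 1). Of 20 BMP genes, 2 in I1 and 5 in M1 had an unadjusted p under 0.05, where 11.6% and 15.4% of all genes did. In I1 the smallest p was that of the ligand Bmp2, at 11.87 and 11.65 against 10.23 and 9.90 in BL185 (1.70 ± 0.43, adjusted p = 0.211). In M1 it was that of Bmper, a secreted BMP modulator, at 7.98 and 9.44 against 10.64 and 10.65 in BL185 (−1.93 ± 0.49, adjusted p = 0.176, and −1.20 with adjusted p = 4.45e-05 without M1 replicate 1). Bmper was also the list's smallest p in I1 against M1, at 11.22 and 11.54 in I1 (2.67 ± 0.49, adjusted p = 0.715, and 1.94 with adjusted p = 4.81e-06 without M1 replicate 1).

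Of 21 SMAD and target genes 0 were called, with 5 in I1 and 9 in M1 at an unadjusted p under 0.05 (11.6% and 15.4% of all genes). The smallest p in both lines was that of Id2, an inhibitor of basic helix-loop-helix factors (1.67 ± 0.23 in I1 and 1.66 ± 0.23 in M1; limma, adjusted p = 0.0721 and 0.0565). Of 7 reported partners of Fstl1 and Ndnf 0 were called, with 0 in I1 and 1 in M1 at an unadjusted p under 0.05 (the same shares of all genes). Cd14, a coreceptor of Tlr4, had the smallest p in I1 (0.77 ± 0.40, adjusted p = 0.569), and Dip2a, a reported Fstl1 receptor, in M1 (−1.81 ± 0.66, adjusted p = 0.301, and −0.80 with adjusted p = 0.004 without M1 replicate 1). With M1 replicate 1 left out, 27 of the 77 genes were higher and 14 lower in I1 (22.5% and 24.1% of all genes), and 16 were higher and 11 lower in M1 (11.7% and 12.3%). In I1 against M1, 0 of the 77 were called by limma. An unadjusted p under 0.05 was held by 3 of the 77, where 2.25% of all genes were that low. In the lists other than that of the BMP genes, Smoc1 (0.58 ± 0.18), Cfc1 (−0.17 ± 0.20), Pmepa1 (0.81 ± 0.31) and Cd14 (0.79 ± 0.40) had the smallest p (limma, adjusted p = 1 each). Those differences were 0.71, 0.01, 0.37 and 0.21 without M1 replicate 1 (adjusted p = 0.00318, 0.977, 0.0663 and 0.378).

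Fstl1 and Sparc are also made by mesenchymal cells, so markers of other cell types were read beside them. Over 12 stellate cell and fibroblast markers, 0 were called in either line, and their mean log2 signal was 7.83 and 7.94 in I1, 8.16 and 7.72 in M1, and 7.61 and 7.67 in BL185. Of these, 1 of 12 (Acta2) had a mean above 9 in each line. Fibrillar collagen Col1a1 averaged 7.60 in I1, 7.97 in M1 and 7.22 in BL185, and Pdgfrb 7.78, 7.50 and 7.27, all near or below the array medians. Over 10 endothelial markers the means were 7.36 and 7.37 in I1, 7.67 and 7.24 in M1, and 7.17 in both BL185 arrays, with 0 called. Of 9 macrophage and leukocyte markers 1 was called in each line, where 0.511% of all genes were in I1 and 0.879% in M1. It was Cd68, which was lower (7.60 in I1, 7.44 in M1 and 10.65 in BL185). Means above 9 were held by 4 of the 9 in I1, 4 in M1 and 3 in BL185. Among them were Cd14 (11.98 in I1, 11.19 in M1 and 11.21 in BL185) and Csf1r (9.48, 9.68 and 9.18), whereas Ptprc stayed at 6.25 to 7.17. Of 5 bile duct and progenitor markers 1 was called in I1 (0.319% of all genes were called lower) and 2 in M1 (0.605%), and each was lower. Prom1 averaged 8.38 in I1, 8.20 in M1 and 11.12 in BL185 (−2.74 in I1 and −2.93 in M1; limma, adjusted p = 0.0291 and 0.0168). Sox9 averaged 10.11 in I1, 9.39 in M1 and 11.45 in BL185 (−1.34 and −2.06, adjusted p = 0.0996 and 0.0343). Krt19, Krt7 and Epcam were not called. The part of these markers in the results on the 10 genes was not tested.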

How the data were processed

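The values deposited by the authors are log2 signals, summarised with RMA and the affy package per the submitters' processing notes. Neither versions nor RMA settings are stated there, and the log2 scale was read from the range of values, 5.80 to 15.43. The platform annotation gave a lone gene symbol to 34945 of 45101 probe sets, and 34741 of them matched a RefSeq gene (GRCm38.p6) by Entrez identifier. Each gene was represented by the probe set with the highest mean over 6 arrays, which left 18193 genes. A mean for each line was fitted with limma 3.58.1 under R 4.3.3 (3 residual and 2.27 prior degrees of freedom), and eBayes p-values were adjusted by Benjamini-Hochberg within each of 3 contrasts, with a threshold of 0.05. SEs and 95% intervals are from this fit. The fit was also run on simulated data, in which all genes of a line shared the same spread and changes were added in I1 only. Measured genes differ in spread, so no conclusion was drawn from that run.

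The members, the gene lists and the alternatives were chosen with earlier results of these data known. Named genes were the 10 members, the 5 genes nearest to Fstl1 and to Ndnf, and, from the 5 lists, up to 4 called genes per list and contrast or else the gene with the smallest p. Of the 82 list genes 77 were measured. Replicate numbers come from the sample titles. Deviations of same-numbered arrays from their line means correlated over genes at 0.37 (I1 and M1), 0.16 (I1 and BL185) and −0.13 (M1 and BL185), so the numbers were not taken to pair the arrays. The 16 alternatives covered probe set choice, normalization, an added 50, a minimum mean log2 of 8, eBayes with trend, array weights, the replicate block, only the lines compared and each array left out. Promoter windows are RefSeq's, cut to the 250 bases before the start. Figures were drawn with matplotlib 3.10.9 in Python 3.11.15. The number of unused sample columns was 0.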

Additional observations from a re-analysis of the deposited data

How the results depend on the processing

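With 2 arrays a line and 1 uneven line, the number of calls changed with the setting even where the values did not, and the number of arrays limits the precision. As reported, those of the 10 genes called against BL185 were Fstl1 in both lines and Ndnf in M1. These calls follow from how both genes were chosen, so they and their changes below were not read as a result. Counts of the 10 genes called in M1 against BL185 were 2 as reported, 1 with every probe set tested, 1 with 50 added to the linear value, 1 with the replicate block, 0 with only the lines compared and 0 with the block after crossing the M1 numbers, an alternative chosen after seeing the data. They ran from 0 to 9 with each array left out. In I1 against BL185 they were 1 as reported, 2 after cyclic loess, 2 after quantile normalization, 7 with array weights, 0 with the replicate block and 7 with only the lines compared, and ran from 0 to 7 with each array left out. In I1 against M1 they were 0 as reported and ran from 0 to 6 with each array left out. The counts over all 18193 genes changed as well. With every probe set tested, the fit and adjustment covered 45037 probe sets, and each gene was counted by its brightest probe set only. In M1 the counts were 160 as reported, 144 with every probe set tested and 161 with 50 added. They were 38 with the replicate block, and 0 with the crossed block or only the lines compared. In I1 they were 93 as reported, 1582 after cyclic loess and 980 after quantile normalization. They were 8551 with array weights, 8481 with only the lines compared and 1 with the replicate block. The block also ended the Sparc call in both lines. Shares for fits without an M1 array are given above.

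Of the 77 pathway genes, 1 was called in M1 as reported, 3 with probe sets averaged, 13 after cyclic loess, 8 after quantile normalization, 3 with a minimum mean log2 of 8, 3 with array weights, and 0 with the replicate block, the crossed block or only the lines compared (0 to 50 with each array left out). In I1 the count was 1 as reported, 13 after cyclic loess, 11 after quantile normalization, 43 with array weights, 0 with the replicate block and 41 with only the lines compared (0 to 41 with each array left out). In I1 against M1 it was 0 as reported and 1 after cyclic loess (0 to 41 with each array left out). Of all 18193 genes, 338 were called in M1 with probe sets averaged and 1820 after cyclic loess. After quantile normalization 1170 were called, and 312 with array weights. With the minimum of 8, 206 of 12029 genes were called in M1. In I1 against M1, cyclic loess called 52 of all genes. The other whole-table counts are given above. Fewer residual degrees of freedom are left by the block, by using only the lines compared and by leaving an array out. The cause of the shifts in these counts was not tested.

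Of 490 values of the 10 genes under the alternatives, 26 turned sign. None of these were for Fstl1, Ndnf or any difference of Inhba, Acvr1, Acvr1b or Acvr2a from BL185. Many of the 490 could not turn. Testing every probe set, the minimum mean log2, the trend, array weights, the blocks and using only the lines compared left each value unchanged. So did leaving out an array of a line outside the comparison. Dimmer probe sets entered only through the mean of probe sets. Those that read higher than BL185, for Inhba, Acvr1b and, in M1, Acvr2a, were therefore not counted alone. For Fst in I1 against BL185 the value was −0.28 with the mean of probe sets, −0.057 after cyclic loess and −0.044 after quantile normalization. For Fstl3 in M1 against BL185 it was 0.055 after cyclic loess and 0.23 after quantile normalization (−0.77 to 0.53 with each array left out), and in I1 against M1 it ran from −0.16 to 1.14. For Inhbb in M1 against BL185 it was −0.11 and −0.064 after those normalizations (−0.009 to 0.28), in I1 against BL185 −0.16 and −0.14 (−0.11 to 0.11), and in I1 against M1 it ran from −0.28 to 0.01. For Acvr2b it ran from −0.073 to 0.50 in M1 against BL185 and was 0.03 in I1 against BL185 with the mean of probe sets. In I1 against M1, that mean gave 0 for Inhba, −0.10 for Acvr1b and −0.04 for Acvr2a. There Acvr1b was −0.14 after cyclic loess and −0.10 after quantile normalization, and with each array left out Acvr1 ran from −0.37 to 1.56, Acvr1b from −0.039 to 0.22 and Acvr2a from −0.48 to 1.10. The cause was not tested.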

Other observations

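Besides Id2, the other BMP and SMAD target genes of the Id family were read after their values had been seen. Id1 read 12.51 and 12.65 in I1, 12.25 and 12.69 in M1, and 11.16 and 10.91 in BL185, a change of 1.54 ± 0.23 in I1 and 1.44 ± 0.23 in M1 (SE; limma, adjusted p = 0.0824 and 0.0717). Id3 read 11.89 on both I1 arrays, 11.53 and 12.28 in M1, and 9.92 and 9.62 in BL185, a change of 2.12 ± 0.30 in I1 and 2.14 ± 0.30 in M1 (adjusted p = 0.0743 and 0.0571). For Id1, Id2, Id3 and Id4 all 4 subclone arrays lay above both BL185 arrays, for Id4 by at least 0.162 in I1 and 0.028 in M1. Both arrays of the line lay above both BL185 arrays for 42.6% of all genes in I1 and 26.2% in M1. None of the 4 passed the threshold. Without M1 replicate 1, Id1 was 1.54 and 1.66 and Id3 2.12 and 2.51 in I1 and M1. Id4 changed by 0.21 ± 0.24 in I1 and 0.33 ± 0.24 in M1 with all arrays (limma, adjusted p = 0.757 and 0.464). Without M1 replicate 1 it was 0.21 in I1 and 0.04 in M1.

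Tgif1, a corepressor of SMAD2, and Smurf1, a ubiquitin ligase that acts on BMP SMADs, read lower in both subclone lines and were likewise picked after their values had been seen. Tgif1 was −1.69 ± 0.34 in I1 and −1.78 ± 0.34 in M1 (limma, adjusted p = 0.144 and 0.0987). Smurf1 was −1.34 ± 0.20 in I1 and −1.08 ± 0.20 in M1 (limma, adjusted p = 0.0849 and 0.0972). On the same list Smad6 read higher, by 0.68 ± 0.44 in I1 and 0.96 ± 0.44 in M1. Smad1 (−0.83 and −1.41) and Smad4 (−0.62 and −0.895) read lower. Of the 21 list genes, both arrays lay above BL185 for 10 in I1 (42.6% of all genes) and 7 in M1 (26.2%). They lay below for 11 (33.5%) and 8 (25.7%). BMP or SMAD activity was not tested.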
